A study of Mus musculus with 20 samples.

Results

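The 9 genes of the core circadian clock described here, Arntl (also named Bmal1), Clock, Per1, Per2, Per3, Cry2, Nr1d1, Nr1d2 and Dbp, were taken by name. They were chosen with earlier results of these data known, and all 9 were found among the 54532 genes of the count tables. All 9 also passed the filter on low counts that left 16166 genes for testing. The libraries came from plantaris muscles of male C57BL/6J mice, aged 5 months, collected 10 days after surgery. Mice had either a sham operation or mechanical overload (MOV), in which part of the synergist gastrocnemius and soleus muscles is removed on both sides so that the plantaris carries more load. At surgery the left plantaris received a control lentivirus and the right plantaris a lentivirus carrying a miR-1 mimic, so every muscle, sham included, was injected with virus. There were thus 4 groups of 5 libraries each, named by surgery and virus: control and mimic libraries of sham muscle, and control and mimic libraries of MOV muscle. Both viruses carried a CMV promoter and TurboGFP as reporter, and each library is whole muscle, so a lower level can reflect fewer cells of a type or less RNA per cell, and these cannot be told apart. Mice were kept on a light-dark cycle, and the hour at which muscles were collected is not given in the sources used here.

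The circadian clock is a feedback loop of transcription. BMAL1, encoded by Arntl, pairs with CLOCK and activates genes that carry E-box sequences, among them the Per and Cry genes, whose proteins return to the nucleus and block their own activators. In a second loop, BMAL1 and CLOCK activate Nr1d1 and Nr1d2, whose REV-ERB proteins repress Arntl, and Dbp encodes a factor that binds D-box sequences and carries the rhythm to output genes. In muscle the levels of most of these transcripts swing over the day, and Arntl peaks when Dbp and Nr1d1 are low. A muscle sampled at one hour therefore shows one phase of the loop, and glucocorticoids, feeding, body temperature and activity can each move single members, Per1 above all.

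Sequences upstream of the members that the results below turn on are shown so that their motifs can be seen. RefSeq windows of 250 bases before a transcription start (GRCm38.p6) were found for 8 of the 9 genes, 12 windows in all, with no window for Per2. The windows of Per1, Nr1d1 and Dbp belong to the 3 genes that edgeR called in the test of libraries of equal number described below, and Per3 is shown because its window holds the motif that DBP binds. Per1 has 2 windows, and the one with an E-box is shown, while the other held none of the motifs searched. Each is printed 5′ to 3′ on the strand of the gene, and capitals mark the letters of a motif.
Per1, chr11:69098699-69098948, plus strand: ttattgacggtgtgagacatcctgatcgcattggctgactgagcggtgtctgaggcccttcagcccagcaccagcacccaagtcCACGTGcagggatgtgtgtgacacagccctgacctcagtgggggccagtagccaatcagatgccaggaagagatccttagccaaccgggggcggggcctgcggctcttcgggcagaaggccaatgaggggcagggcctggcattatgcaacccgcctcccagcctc
Nr1d1, chr11:98775378-98775627, minus strand: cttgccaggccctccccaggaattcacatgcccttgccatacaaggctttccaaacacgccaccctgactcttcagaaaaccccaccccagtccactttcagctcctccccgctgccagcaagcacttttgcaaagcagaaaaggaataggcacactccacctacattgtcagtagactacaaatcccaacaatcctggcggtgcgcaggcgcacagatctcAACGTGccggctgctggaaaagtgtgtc
Dbp, chr7:45704997-45705246, plus strand: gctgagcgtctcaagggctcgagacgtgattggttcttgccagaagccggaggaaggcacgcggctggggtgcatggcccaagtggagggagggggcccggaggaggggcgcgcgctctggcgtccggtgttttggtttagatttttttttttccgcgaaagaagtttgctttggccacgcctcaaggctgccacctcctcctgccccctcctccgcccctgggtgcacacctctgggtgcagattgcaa
Per3, chr4:151044666-151044915, minus strand: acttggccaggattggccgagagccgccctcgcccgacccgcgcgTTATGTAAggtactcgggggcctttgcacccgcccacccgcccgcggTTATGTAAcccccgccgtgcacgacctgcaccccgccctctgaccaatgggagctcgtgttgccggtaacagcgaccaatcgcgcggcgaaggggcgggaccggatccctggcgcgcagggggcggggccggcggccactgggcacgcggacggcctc

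The 4 kinds of motif below were searched on both strands. The E-box CACGTG stood in 1 window, that of Per1, against 6.02% of the 32851 windows of the whole table. The E-box variant CACGTT, read AACGTG on the other strand, stood in the windows of Nr1d1 and Cry2, against 3.85% of all windows. The D-box TTATGTAA, read TTACATAA on the other strand, stood at 2 places in the window of Per3, against 0.819% of all windows. The core of the element bound by ROR and REV-ERB proteins, TAGGTCA or TGACCTA, was in none of the 12 windows, against 2.23% of all windows. A match describes the letters of a window, and its absence says only that these letters are not there.

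Library totals ran from 12036360 to 23056525 counts, with a median of 16940547.5. MOV mimic library 4, the shallowest, stood apart from the rest over all genes, with a mean correlation of 0.876 with the other libraries on the log2 CPM scale, where the other 19 lay between 0.923 and 0.955. Each test of groups or numbers below was repeated without each library, or each pair of libraries, in turn. Fibre markers dominated every library: the sum of Acta1, Ckm, Myh4, Myh1, Tnnt3 and Pvalb lay between 59175 and 164844 CPM (counts scaled to a common library size by TMM, the unit of level used throughout), and none of the 6 was at 0 in any group. Leukocyte markers summed to 159 to 749 CPM and fibroblast markers to 598 to 4669 CPM.

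Per kilobase of exon, the order of the members over the 20 libraries was Nr1d1, Nr1d2, Dbp, Arntl, Cry2, Per1, Clock, Per3 and Per2. On the scale of RPKM, CPM divided by exon length in kilobases, Nr1d1 averaged 32.5 ± 8.40 (SD, n = 20) and Nr1d2 18.9 ± 3.51, so the REV-ERB genes stood above the rest. Dbp averaged 10.5 ± 3.08 RPKM, Arntl 9.27 ± 2.25, Cry2 6.55 ± 0.985, Per1 5.68 ± 3.17 and Clock 4.34 ± 0.472, and each neighbour in that run overlapped the next within 1 SD. Per3, at 2.55 ± 0.444 RPKM, and Per2, at 1.35 ± 0.382, lay below them and apart from each other by more than their SDs. Per2 was also the most thinly counted member, with 63 to 243 counts per library, so that counting error alone came to 12.6% at its lowest library. The other 8 had between 210 and 2455 counts in every library.

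**Figure D1:**
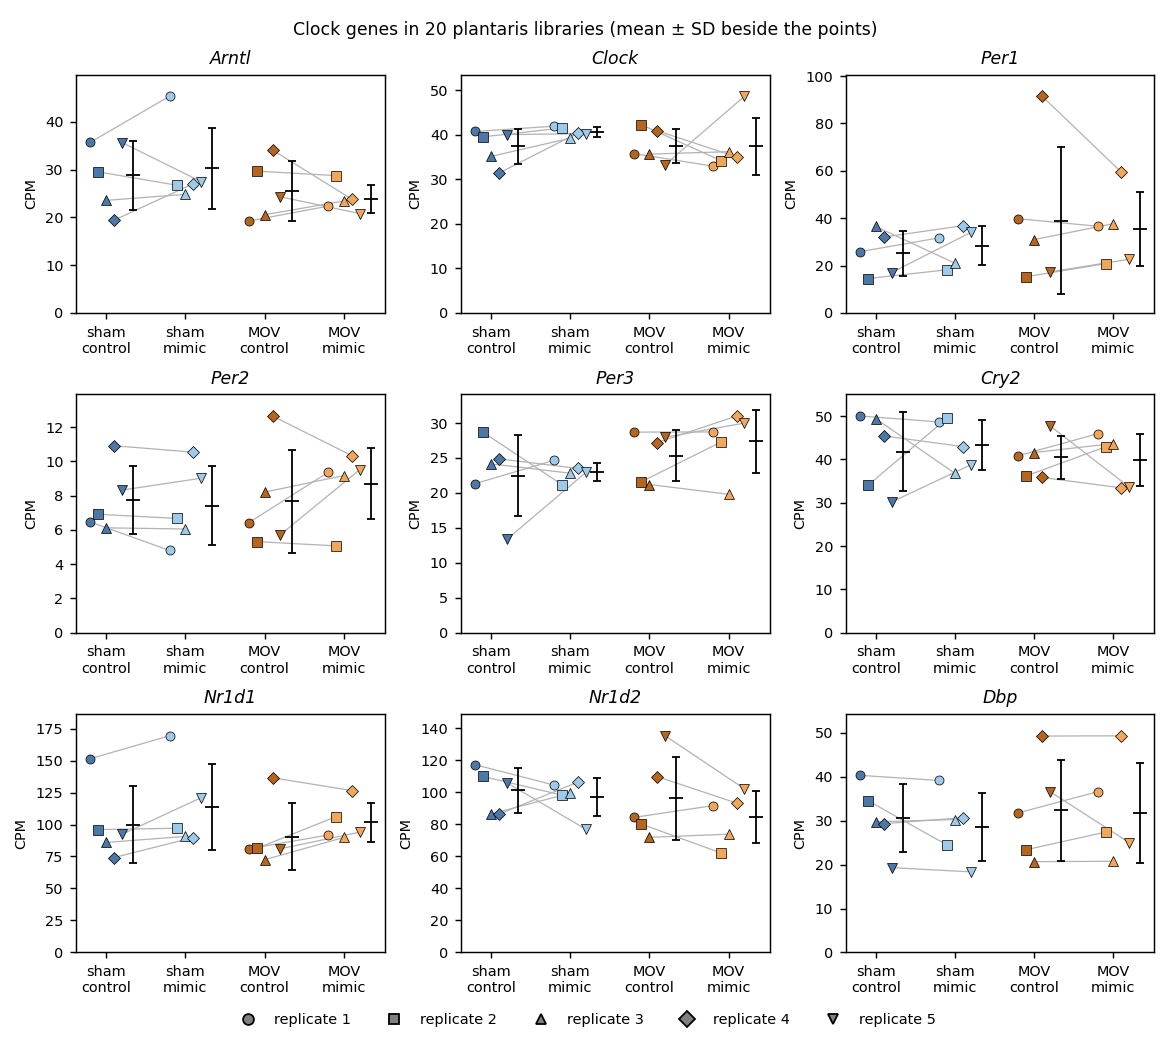
Level of each clock gene in CPM (vertical axis, from 0) in the 20 libraries, by group on the horizontal axis. Marker shapes give the replicate number, grey lines join control and mimic libraries of equal number within a surgery, and bars beside the points are mean ± SD of 5 libraries. The groups overlap in every panel, and the widest spread as a fold is that of Per1, 6.31-fold, from 14.5 to 91.5 CPM.

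The members differed widely in how much they varied from library to library. Clock, the most even, spanned 31.4 to 48.7 CPM, a 1.55-fold range, and Cry2, which encodes a cryptochrome that holds the activators in check, spanned 30.2 to 50.0 CPM, or 1.66-fold. Per1 spanned 14.5 to 91.5 CPM, a 6.31-fold range. The other 6 had ranges between 2.18-fold for Nr1d2 and 2.69-fold for Dbp.

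Among the activators, Arntl (ENSMUSG00000055116, chr7:113178471-113314126 in GRCm38.p6) stood at 35.7, 29.5, 23.6, 19.4 and 35.7 CPM in sham control libraries 1 to 5 and at 45.4, 26.7, 24.8, 27.1 and 27.5 CPM in sham mimic libraries 1 to 5. It stood at 19.2, 29.7, 20.6, 34.1 and 24.3 CPM in MOV control and at 22.4, 28.8, 23.4, 23.8 and 20.8 CPM in MOV mimic. The highest library was sham mimic 1 and the lowest MOV control 1, and all 4 groups overlapped. Clock (ENSMUSG00000029238, chr5:76209868-76305603), the partner of BMAL1, averaged 37.4 ± 4.00 CPM under control virus and 40.7 ± 1.08 under mimic in sham muscle, and 37.6 ± 3.81 and 37.4 ± 6.40 CPM in MOV muscle (SD, n = 5 each). Its MOV mimic library 5, at 48.7 CPM, lay above every other library.

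Among the repressors, Per1 (ENSMUSG00000020893, chr11:69095108-69109965), a period gene that also answers within minutes to cAMP and glucocorticoid signals, stood at 25.8, 14.5, 36.5, 32.0 and 17.0 CPM in sham control libraries 1 to 5. In sham mimic it stood at 31.7, 18.2, 21.0, 36.8 and 34.0 CPM. In MOV control it stood at 39.8, 15.3, 30.9, 91.5 and 17.3 CPM, and in MOV mimic at 36.6, 20.8, 37.7, 59.4 and 22.6 CPM. The libraries numbered 4 of both MOV groups were the highest of all 20, and library 2 was the lowest of each of the 4 groups. Per2 (ENSMUSG00000055866, chr1:91415977-91459351), a period gene driven both by the local loop and by cues from the body, averaged 7.74 ± 1.96 CPM under control virus and 7.41 ± 2.32 under mimic in sham muscle, and 7.66 ± 3.00 and 8.69 ± 2.07 CPM in MOV muscle. Per3 (ENSMUSG00000028957, chr4:150997018-151044707), a period gene the loop can run without, averaged 22.5 ± 5.74, 23.02 ± 1.27, 25.3 ± 3.63 and 27.4 ± 4.45 CPM in the same order of groups. Cry2 (ENSMUSG00000068742, chr2:92403646-92434085) averaged 41.8 ± 9.16, 43.3 ± 5.71, 40.5 ± 4.86 and 39.9 ± 5.94 CPM. For none of the 4 did any 2 groups separate.

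In the REV-ERB loop, Nr1d1 (ENSMUSG00000020889, chr11:98767932-98775377) stood at 151, 96.0, 86.0, 74.2 and 92.3 CPM in sham control libraries 1 to 5 and at 169, 97.1, 90.7, 89.8 and 121 CPM in sham mimic. It stood at 81.0, 81.3, 72.5, 137 and 81.0 CPM in MOV control and at 91.8, 106, 89.8, 127 and 94.0 CPM in MOV mimic. Both sham libraries numbered 1 and both MOV libraries numbered 4 were high in their group, and the next highest was sham mimic 5. Nr1d2 (ENSMUSG00000021775, chr14:18204056-18239106), its paralog with overlapping function, averaged 101 ± 14.1 CPM under control virus and 97.1 ± 11.8 under mimic in sham muscle, and 96.3 ± 26.0 and 84.6 ± 16.2 CPM in MOV muscle.

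Dbp (ENSMUSG00000059824, chr7:45705100-45710203), the output arm of the loop and among the transcripts with the strongest daily swing in muscle, stood at 40.3, 34.6, 29.7, 29.3 and 19.3 CPM in sham control libraries 1 to 5 and at 39.1, 24.5, 30.2, 30.7 and 18.3 CPM in sham mimic. It stood at 31.8, 23.4, 20.7, 49.2 and 36.6 CPM in MOV control and at 36.6, 27.4, 20.8, 49.3 and 25.0 CPM in MOV mimic. In sham the libraries numbered 1 were the highest and those numbered 5 the lowest of both groups, and in MOV those numbered 4 were the highest and those numbered 3 the lowest of both. The levels of Nr1d1, Dbp and Per3 carry an uncertainty of counting, because Nr1d1 overlaps Thra, Dbp overlaps Sphk2 and Per3 overlaps Uts2, and whether strand was used in counting is not given in the sources used here. Thra averaged 63.6 CPM, Sphk2 18.7 CPM and Uts2 0.210 CPM.

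The first comparison asked how the clock genes stood in overloaded against sham muscle under control virus. None of the 9 passed edgeR's quasi-likelihood test at an adjusted p of 0.05, where 0.00668% of the 14974 genes tested did, and none passed DESeq2, where 6.22% of the 14675 genes that it gave an adjusted p did. None had an unadjusted p below 0.05 either, where 18.2% of all genes did. The largest difference was that of Per1, with a log2 fold change of 0.64 (SE 0.44), an edgeR adjusted p of 0.472 and a 95% interval of the fold from 0.800 to 3.02. Without MOV control library 4, at 91.5 CPM, the log2 fold change of Per1 was 0.03. Clock had a log2 fold change of 0.02 (SE 0.12) and an interval of the fold from 0.844 to 1.21, the tightest of the 9, whereas that of Arntl ran from 0.655 to 1.22 and that of Dbp from 0.735 to 1.53. The members' median size of change, without sign, was 0.08 on the log2 scale, beside 0.25 over all genes tested.

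Under miR-1 mimic, MOV against sham again called none of the 9, where edgeR called 0% of 14918 genes and DESeq2 1.51% of 14621, and 13.4% of genes had an unadjusted edgeR p below 0.05. Arntl came nearest, with a log2 fold change of -0.33 (SE 0.17) and an edgeR adjusted p of 0.423. Its sham mimic mean of 30.3 ± 8.50 CPM and its MOV mimic mean of 23.8 ± 2.99 CPM overlapped, and sham mimic library 1, at 45.4 CPM, lay above the other 4 of its group, and without it the log2 fold change was -0.15. Per3 had a log2 fold change of 0.26 (SE 0.14), with an interval of the fold from 0.969 to 1.48. In each of these comparisons 4 members were higher and 5 lower in MOV, and their median size of change under mimic was 0.19, beside 0.25 over all genes.

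When the counts of both libraries of a number were summed, giving 5 sham and 5 MOV sums, MOV against sham called none of the 9, where edgeR called 0.15% of 16661 genes and DESeq2 6.84% of 16323, and 20.4% had an unadjusted edgeR p below 0.05. Per1 again had the largest log2 fold change, 0.48 (SE 0.35), and Arntl stood at -0.26 (SE 0.16). Leaving out 1 sum at a time moved Per1 between 0.03, without that of the MOV pair numbered 4, and 0.66, and Arntl between -0.34 and -0.14. The median size over the members was 0.14, beside 0.25 over all genes.

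The mimic itself was compared with control virus within each surgery. In MOV muscle none of the 9 was called, where edgeR called 0% of 15220 genes and DESeq2 0.0197% of 15207, and 4.21% had an unadjusted edgeR p below 0.05. In sham muscle none was called, where edgeR called 0% of 14746 genes and DESeq2 0% of 14729, and 1.72% had an unadjusted edgeR p below 0.05. The log2 fold changes lay between -0.18 for Nr1d2 and 0.19 for Per2 in MOV and between -0.10 for Dbp and 0.18 for Nr1d1 in sham. Leaving out 1 library at a time moved Nr1d2 between -0.27 and -0.03 and Per2 between 0.08 and 0.44 in MOV, and Dbp between -0.23 and 0.03 and Nr1d1 between 0.00 and 0.37 in sham. Counted by libraries of equal number, Nr1d1 was higher in the mimic library in 5 of 5 sham and 4 of 5 MOV pairs, and Clock in 5 of 5 sham and 2 of 5 MOV pairs. The mimic effect was also tested for a difference between MOV and sham. None of the 9 passed, where edgeR called 0% of 16166 genes and DESeq2 0.00619% of 16164, and 2.64% had an unadjusted edgeR p below 0.05. The largest interaction on the log2 scale was -0.31 (SE 0.57), for Per1.

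These comparisons share libraries, sham control serving both the overload and the mimic comparison, so they are not separate evidence. Over the 54 tests of a member in a comparison the smallest unadjusted edgeR p was 0.0770. In all 36 cases of a member in a comparison of 2 groups, the values of the groups overlapped. How often other genes overlap was not counted, so this is only a description. The intervals do not show equal levels: for Per1 in MOV mimic against MOV control they left room for a fold between 0.473 and 1.75. The libraries of a group are given as replicates, so the p-values measure the spread between these muscles.

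**Figure D2:**
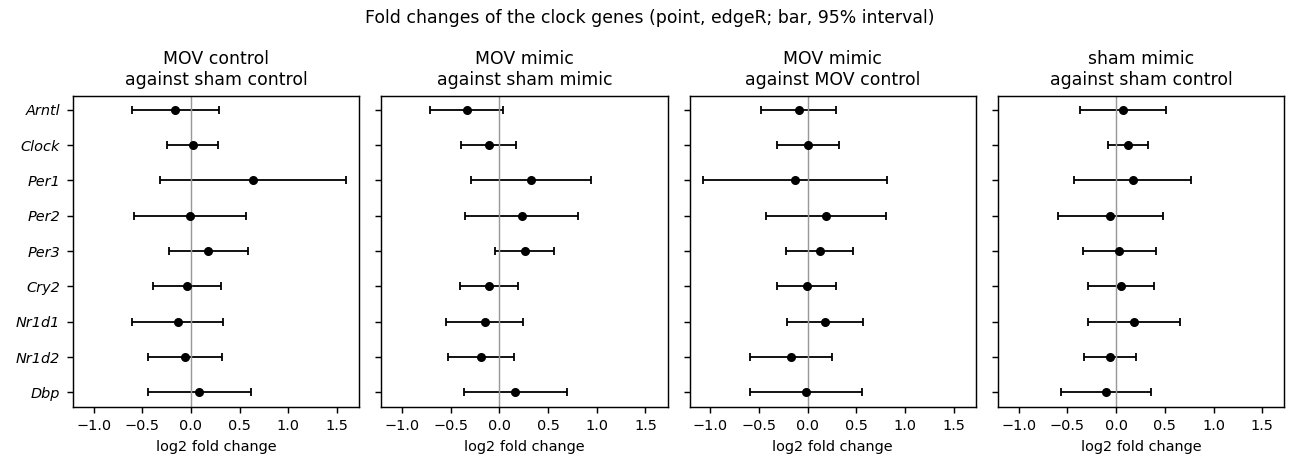
Log2 fold change of each clock gene (points, edgeR) with its 95% interval (bars) in the 4 comparisons of 2 groups, on one horizontal scale. Every interval includes 0, and those of Per1 are the widest, from -0.32 to 1.59 in MOV control against sham control.

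Before group means are read, it matters whether the control and mimic libraries of one number share a clock state. By the study's methods both viruses went into the 2 legs of each mouse, but the labels give only numbers and do not say that equal numbers mean one mouse. A term for the number within each surgery was therefore fitted over all 20 libraries beside the 4 group means, and its 8 coefficients were tested together. Nr1d1 (adjusted p = 0.00829), Dbp (adjusted p = 0.0104) and Per1 (adjusted p = 0.0125) passed edgeR's test, 3 of the 9 members, where 6.07% of the 16166 genes did. DESeq2 called 5 of the 9, adding Per2 (adjusted p = 0.0114) and Nr1d2 (adjusted p = 0.0370), where 21.8% of genes did, and 6 of the 9 had an unadjusted edgeR p below 0.05, where 23.5% of genes did. Arntl had an edgeR adjusted p of 0.147, Per3 of 0.498, Cry2 of 0.690 and Clock of 0.935. Neither Thra (edgeR adjusted p = 0.273) nor Sphk2 (edgeR adjusted p = 0.791), the genes that overlap Nr1d1 and Dbp, passed.

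The call rested in part on single pairs. Without the sham pair numbered 1, only Per1 passed among the members, Nr1d1 had an edgeR adjusted p of 0.277 and Dbp of 0.0773, and the count over all genes dropped from 982 to 121. Without the MOV pair numbered 4, where 6.97% of genes passed, only Nr1d1 passed and Per1 had an edgeR adjusted p of 0.0685. Leaving out any of the other 8 pairs left 3 members called, Nr1d1, Dbp and Per1 each time. Between 4.51% and 7.44% of genes passed in those 8 fits. Within sham alone Nr1d1 and Dbp passed, where 6.33% of genes did, and within MOV alone Per1 passed, where 1.14% did. Both fits to a single surgery were chosen after seeing the data.

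The size of the sharing was given by the correlation, over the 10 pairs, of the control and the mimic library's deviation from its group mean on the log2 CPM scale. For Nr1d1 Pearson's r was 0.89 (two-sided exact permutation p = 0.00382) and Spearman's rho 0.79 (exact permutation p = 0.0218). Without the 2 pairs farthest from the median, sham 1 and MOV 4, r was 0.54, so the relation rested in part on them. For Dbp r was 0.82 (exact permutation p = 0.0108), rho 0.68 (exact permutation p = 0.0515), and r without 2 pairs 0.62. For Per1 r was 0.76 (exact permutation p = 0.0258), rho 0.70 (exact permutation p = 0.0392), and r without 2 pairs, MOV 2 and MOV 4, 0.47. For Per2 r was 0.71 (exact permutation p = 0.0378), rho 0.68 (exact permutation p = 0.0278), and r without 2 pairs 0.65. These 4 had the highest r of the 9, while Arntl stood at 0.51, Nr1d2 at 0.50, Per3 at 0.24, Cry2 at -0.05 and Clock at -0.35. Without their 2 farthest pairs these 5 stood at 0.58, 0.22, -0.32, -0.12 and 0.27, so the sign of Per3 and Clock turned. Within each surgery r over the 5 pairs is given as a description and was not tested. It was 0.92 in sham and 0.92 in MOV for Nr1d1, 0.84 and 0.80 for Dbp, 0.91 and 0.59 for Per2, and 0.55 and 0.48 for Arntl. For Per1 it was 0.23 in sham and 0.98 in MOV, and for Clock it was 0.54 and -0.64. It was -0.33 and 0.77 for Per3, -0.24 and 0.77 for Nr1d2, and 0.01 and -0.16 for Cry2. The difference between the surgeries was not tested.

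Over all 16166 genes the median r was 0.29, and 13.2% of genes had an unadjusted p below 0.05, so a shared deviation was common among genes at large. The smallest p that the 14400 permutations can give is 6.94e-05, too large for a single gene to pass Benjamini-Hochberg adjustment over all genes on its own, so that no gene passed says little. The r of Nr1d1 was above that of 98.9% of all genes, that of Dbp above 96.1%, that of Per1 above 93.1% and that of Clock above 7.63%. For Nr1d1 the SD between pairs was 0.33 on the log2 scale against 0.12 within a pair, and for Dbp 0.43 against 0.19, whereas for Cry2 it was 0.16 against 0.24.

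**Figure D3:**
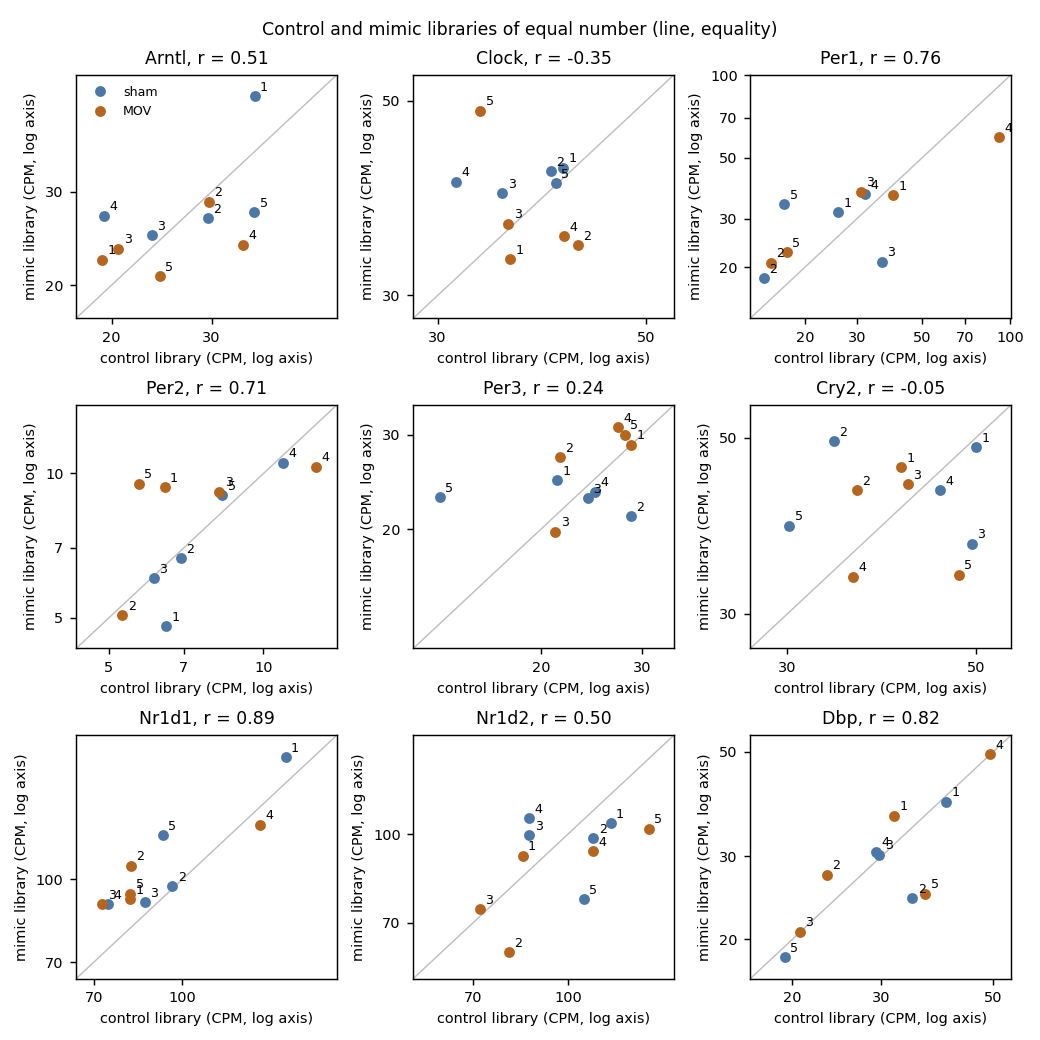
Mimic library (vertical) against control library of equal number (horizontal), both in CPM on log axes, for each clock gene, with sham pairs in blue, MOV pairs in brown, the pair number beside each point and a line of equality. The r in each title is that of deviations from the group means over 10 pairs, 0.89 for Nr1d1, 0.82 for Dbp and -0.35 for Clock.

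The balance of Arntl and Dbp, which peak at different times of day, was taken as the log2 difference of their levels. It averaged -0.09 ± 0.57 under control virus and 0.09 ± 0.34 under mimic in sham muscle, and -0.30 ± 0.45 and -0.35 ± 0.52 in MOV muscle (SD, n = 5 each), so the groups overlapped. Single libraries ran from -1.04 in MOV mimic 4 to 0.88 in sham control 5. Its deviations in control and mimic libraries of equal number correlated at r = 0.78 and rho = 0.72 over the 10 pairs and had the same sign in 7 of them. This is a description, with no test.

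Among the members themselves, taken as the mean deviation of each of the 10 pairs, 36 pairs of genes gave correlations with a median of 0.12, and 24 were positive. Arntl and Nr1d1 went together most closely, with r = 0.88 (exact permutation p = 0.00118) and rho = 0.95 (exact permutation p = 0.00111), and r was 0.90 without 2 of the pairs. This is an activator and a repressor of that same activator, whose daily peaks lie apart. Per3 and Dbp followed, with r = 0.81 (exact permutation p = 0.0139), rho = 0.65 (exact permutation p = 0.069) and r = 0.45 without 2 pairs. Arntl and Clock, the activators, had r = 0.69 (exact permutation p = 0.0431), rho = 0.70 (exact permutation p = 0.0512) and r = 0.66 without 2 pairs. The period genes Per1 and Per2 had r = 0.68 (exact permutation p = 0.0449), rho = 0.59 (exact permutation p = 0.096) and r = 0.30 without 2 pairs, so this last relation rested on MOV pairs 2 and 4. The lowest was that of Clock and Per1, at -0.43. Of the 36, 4 had an unadjusted p below 0.05. Adjusted over the 161 relations computed here across pairs, the 36 and the 125 with other lists and genes below, the smallest p was 0.0522, that of Arntl and Nr1d1 among them, and none was under 0.05. The relations share libraries and their scaling.

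The genes closest to a member were sought among 10329 genes with a mean of at least 5 CPM, by the correlation of deviations from the group mean over the 20 libraries. Nearest to Arntl were Setd6, a lysine methyltransferase gene, with r = 0.80, Nr1d1 with 0.78 and Ddx3y with 0.77, and most opposed were Atp6v0d1 with -0.82, Ier3 with -0.81 and Enc1 with -0.79. Nearest to Dbp were 1110007C09Rik with 0.88, Arfrp1 with 0.86 and Psmd3 with 0.84, and among the most opposed were Srpx with -0.84 and Copb1 with -0.84. Nearest to Per1 were Irs2, which encodes an adaptor of the insulin receptor, with 0.90, and the immediate early genes Fos with 0.87 and Nr4a1 with 0.86. Most opposed to Per1 were Pramef8 with -0.85, 4921524J17Rik with -0.82 and Galntl2 with -0.77. Of these neighbours only Nr1d1 is a clock gene. The libraries that stood apart and library depth are common to all of these values.

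Other genes of the clock were taken from a list of 11, among them Npas2, Cry1, Bhlhe40, Bhlhe41, Nfil3, Tef, Hlf and Ciart. Of these 11, 10 passed the filter, and none was called by edgeR in any of the 4 comparisons of 2 groups. Hlf, a relative of Dbp, averaged 7.68 ± 3.54 and 2.95 ± 1.57 CPM, in sham control and MOV control, with a log2 fold change of -1.37 (SE 0.42), an edgeR adjusted p of 0.118 and a DESeq2 adjusted p of 0.0247. In the same comparison Bhlhe40, an E-box repressor, stood at -0.54 (SE 0.19) and Cry1, the partner of Cry2, at -0.50 (SE 0.16), and neither was called by either tool. DESeq2 called 2 of the 10 there, both lower, Hlf among them, where it called 6.22% of all genes. On the summed counts it also called 2, both lower, where it called 6.84%. In MOV control against sham control 5 of the 10 had an unadjusted edgeR p below 0.05, where 18.2% of all genes did. The median log2 fold change of the 10 was -0.37, beside 0.04 over all genes and -0.01 over the 9 members. Under mimic, Hlf stood at -1.23 (SE 0.40) in MOV against sham, and no gene of the list was called by either tool.

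In the term for equal numbers, which 6.07% of all genes passed, 2 of these 10 passed edgeR, Nfil3, a D-box repressor (adjusted p = 0.000619, r between libraries 0.95), and Bhlhe40 (adjusted p = 0.0339, r 0.71). None of 8 kinases and ubiquitin ligases that act on clock proteins passed, in that term or in any comparison of groups by either tool. Of 12 genes known as clock outputs in muscle, 4 passed the term: Pdk4, which spares glucose (adjusted p = 0.000907), the muscle regulator Myod1 (adjusted p = 0.0057), the uncoupling protein gene Ucp3 (adjusted p = 0.0112) and the deubiquitinase gene Usp2 (adjusted p = 0.0129). Without the sham pair numbered 1, the counts were 1 of 10, 0 of 8 and 2 of 12, where 0.728% of all genes passed, and without the MOV pair numbered 4 they were again 1 of 10, 0 of 8 and 2 of 12, where 6.97% passed. Nfil3 and Pdk4 passed in both cases. DESeq2, which called 21.8% of all genes, gave 5 of 10, 0 of 8 and 8 of 12, and edgeR with no filter on low counts, which called 11.1%, gave 4 of 10, 0 of 8 and 10 of 12. In MOV control against sham control, edgeR called none of the 12 outputs and DESeq2, which called 6.22% of all genes, called 3, all lower: Lpl with a log2 fold change of -1.41 (SE 0.30), Tcap with -0.91 (SE 0.22) and Fbxo32 with -0.91 (SE 0.21). In MOV mimic against sham mimic DESeq2 called 0 of the 12, where it called 1.51% of all genes, and on the summed counts it called 2, both lower, where it called 6.84%. Markers of several cell types also stood lower in MOV control than in sham control, with a median log2 fold change of -1.44 over 2 adipocyte, -0.49 over 3 endothelial, -0.42 over 4 fibroblast, -0.38 over 6 leukocyte and -0.32 over 6 fibre markers and -1.30 for the red blood cell gene Hba-a1, beside 0.35 over 2 Schwann cell markers and 0.04 over all genes. The summed fibroblast level went the other way, with a median of 4005 CPM in MOV control and 2411 CPM in sham control. DESeq2 called Kdr among the endothelial and Myh4 among the fibre markers, and Hba-a1, all lower, and edgeR called none of these markers. On the summed counts DESeq2 called 3 of 3 endothelial and 1 of 6 fibre markers, all lower, where it called 6.84% of all genes. In MOV mimic against sham mimic it called 1 of 3 endothelial markers, lower, where it called 1.51%. The part of these cells in the 3 outputs was not tested.

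Genes that answer to signals outside the clock were counted in the same term, against the same 6.07% of all genes. Of 8 immediate early and cAMP-induced genes 5 passed, Fos, Fosb, Nr4a1, Nr4a3 and Atf3, of 9 glucocorticoid-induced genes 1, Fkbp5, and of 6 temperature-responsive genes 1, Hspa1b. These counts depended on the tool and the filter: DESeq2 gave 6 of 8, 6 of 9 and 3 of 6, beside 21.8% of all genes, and edgeR with no filter 7 of 8, 8 of 9 and 2 of 6, beside 11.1%. Without the sham pair numbered 1 the counts of the filtered edgeR fit were 0 of 8, 0 of 9 and 1 of 6, beside 0.728% of all genes, and without the MOV pair numbered 4 they were 2 of 8, 1 of 9 and 1 of 6, beside 6.97%. Of the cell type markers, 4 of 6 leukocyte and macrophage genes passed, 3 of 4 fibroblast genes, 0 of 6 fibre genes, 0 of 3 endothelial genes, 0 of 2 adipocyte genes, 1 of 2 Schwann cell genes and the 1 red blood cell gene found. The counts of fibre and adipocyte genes were not settled, with 4 of 6 and 2 of 2 passing DESeq2 and 6 of 6 and 2 of 2 passing edgeR with no filter, where all 6 leukocyte and all 4 fibroblast genes passed as well. Of the endothelial genes 1 passed DESeq2 and 0 passed edgeR with no filter. Without the sham pair numbered 1, 0 of the leukocyte and 0 of the fibroblast genes passed, and without the MOV pair numbered 4, 6 of 6 and 3 of 4 did. Within sham alone 6 of 6 leukocyte and 3 of 4 fibroblast genes passed, where 6.33% of all genes did, and within MOV alone 0 of 6 and 0 of 4, where 1.14% did. That difference between sham and MOV was not tested.

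Sums of each list and marker set, and the 8 immediate early genes singly for Per1, were correlated with the members over the 10 pairs. Of these 125 relations 21 had an unadjusted p below 0.05, all of which are given here, and none had a p below 0.05 when adjusted over the 161 relations. The summed level of the immediate early genes correlated with Per1, with r = 0.97 (exact permutation p = 0.00146, adjusted over the 161 relations 0.0522) and rho = 0.81 (exact permutation p = 0.0206), and r was 0.91 without the 2 farthest pairs. That sum lay between 171 and 942 CPM in MOV control and between 188 and 445 CPM in sham control, and MOV control library 4 held the highest value of both the sum and Per1. Single genes gave r = 0.91 (exact permutation p = 0.00194) and rho = 0.81 (exact permutation p = 0.0187) for Nr4a1 and r = 0.87 (exact permutation p = 0.00569) and rho = 0.81 (exact permutation p = 0.022) for Fos, with r = 0.85 and 0.72 without 2 pairs. Atf3 gave r = 0.82 (exact permutation p = 0.0115) and rho = 0.67 (exact permutation p = 0.0363), with r = 0.47 without 2 pairs, and Nr4a3 gave r = 0.68 (exact permutation p = 0.0461) and rho = 0.41 (exact permutation p = 0.268), with r = 0.69 without 2 pairs. The part of this signal in the level of Per1 was not tested.

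The summed leukocyte markers correlated negatively with Nr1d1, with r = -0.80 (exact permutation p = 0.0195, adjusted over the 161 relations 0.228) and rho = -0.75 (exact permutation p = 0.0306), and r was -0.82 without 2 pairs. Against Nr1d2 r was -0.78 (exact permutation p = 0.00181) and rho -0.78 (exact permutation p = 0.00806), and against Clock r was -0.75 (exact permutation p = 0.0198) and rho -0.76 (exact permutation p = 0.0241), with r = -0.74 and -0.60 without 2 pairs. The fibroblast sum gave r = -0.76 (exact permutation p = 0.0428) and rho = -0.56 (exact permutation p = 0.135) against Nr1d1, and r = -0.75 (exact permutation p = 0.000903) and rho = -0.82 (exact permutation p = 0.00125) against Nr1d2, with r = -0.75 and -0.71 without 2 pairs. For Dbp the leukocyte sum gave r = -0.63 (exact permutation p = 0.0666) and for Per1 -0.05 (exact permutation p = 0.909), with rho = -0.42 (exact permutation p = 0.252) and 0.05 (exact permutation p = 0.892). Over the groups the leukocyte sum ran from 171 to 749 CPM under control virus and 176 to 695 under mimic in sham muscle, and from 159 to 624 and 352 to 642 CPM in MOV muscle, with none of the 6 markers at 0 in any group. The sum stood at 171 CPM in sham control 1, 176 in sham mimic 1 and 159 in MOV control 4, the 3 libraries with the highest Nr1d1, but also at 168 CPM in MOV control 5, where Nr1d1 was at 81.0 CPM. The part of these cells in the level of Nr1d1 was not tested.

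Other sums gave the remaining relations. Each sum in these relations adds the CPM of its genes, so the most abundant weigh most. It takes no account of the direction in which each gene answers to a signal. For Nr1d1 the smallest p was that of the temperature-responsive genes, with r = 0.77 (exact permutation p = 0.00931, adjusted over the 161 relations 0.15) and rho = 0.60 (exact permutation p = 0.0678), but r was 0.34 without sham pair 1 and MOV pair 4. The same sum gave r = 0.60 (exact permutation p = 0.0345) and rho = 0.49 (exact permutation p = 0.155) with Arntl, and again r = 0.34 without those pairs, so both relations rested on them. The adipocyte markers gave r = -0.79 (exact permutation p = 0.022) and rho = -0.78 (exact permutation p = 0.0203) with Per1, and r = -0.75 (exact permutation p = 0.0231) and rho = -0.81 (exact permutation p = 0.01) with Dbp, with r = -0.59 and -0.68 without 2 pairs. Their sum lay between 0.0635 and 15.1 CPM and had the lowest median of the marker sets in each group.

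Clock gave r = -0.69 (exact permutation p = 0.0345) and rho = -0.62 (exact permutation p = 0.0784) with the fibroblast sum, and r = 0.67 (exact permutation p = 0.0494) and rho = 0.81 (exact permutation p = 0.015) with the Schwann cell sum, with r = -0.48 and 0.31 without 2 pairs. Nr1d2, the member with the most such relations, gave r = 0.77 (exact permutation p = 0.0034) and rho = 0.82 (exact permutation p = 0.014) with the glucocorticoid-induced genes, and r = 0.77 without 2 pairs. With the other clock genes Nr1d2 gave r = 0.80 (exact permutation p = 0.00375) and rho = 0.76 (exact permutation p = 0.0217), and with the kinases and ligases r = 0.75 (exact permutation p = 0.00174) and rho = 0.82 (exact permutation p = 0.00347), with r = 0.65 and 0.66 without 2 pairs. With the fibre markers it gave r = 0.67 (exact permutation p = 0.0418) and rho = 0.62 (exact permutation p = 0.0801), and r = 0.51 without 2 pairs. With the clock outputs it gave r = 0.56 (exact permutation p = 0.0415) and rho = 0.21 (exact permutation p = 0.527), and r was -0.40 without sham pair 1 and MOV pair 5, on which that relation rested. The part of these other genes and cells in the levels of the members was not tested.

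**Figure D4:**
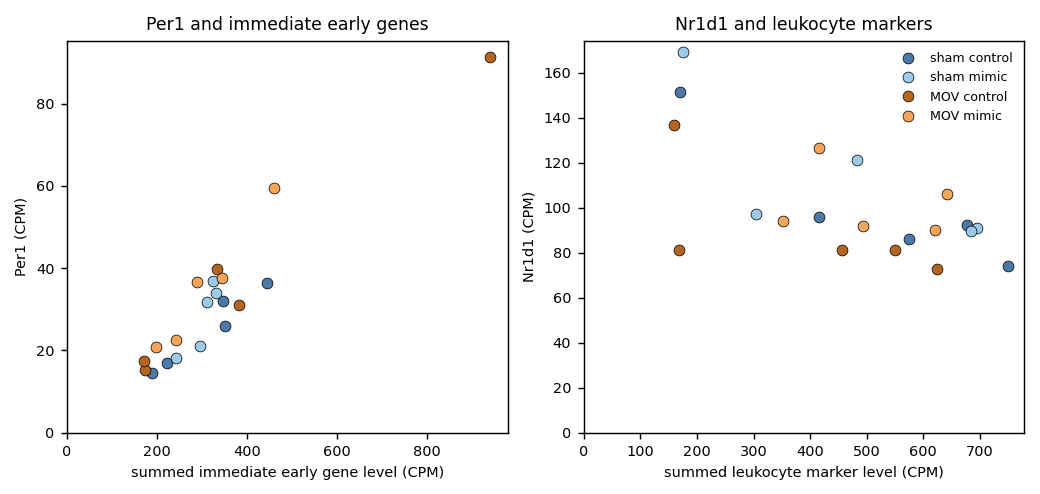
Left, Per1 against the summed level of 8 immediate early genes; right, Nr1d1 against the summed level of 6 leukocyte and macrophage markers, all in CPM on axes from 0, with 1 point for each of the 20 libraries, coloured by group. Per1 climbs with the sum to its highest point, 91.5 CPM at a sum of 942 CPM, and the highest Nr1d1 values, 151 and 169 CPM, lie at sums of 171 and 176 CPM.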

How the data were processed

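Raw counts of reads per Ensembl gene were deposited by the authors for 20 plantaris libraries, in a table for control and another for mimic virus. The study trimmed reads with Trim Galore 0.6.10 and Cutadapt 4.4, aligned them to GRCm38 with HISAT2 2.0.5 and counted them with featureCounts 1.5.0-p3. The strand setting and the handling of multi-mapped reads are not given in the sources used here, which bears on the overlaps Nr1d1/Thra, Dbp/Sphk2 and Per3/Uts2.

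Both tables were joined by gene ID, and symbols were taken from the reference name tables, with 32640 genes named. Groups came from the sample labels. Counts were scaled by TMM and filtered with filterByExpr, and groups were compared with edgeR 4.0.16 (glmQLFit, glmQLFTest) using the libraries of the 2 groups only, with Benjamini-Hochberg adjustment over all genes and a threshold of 0.05. DESeq2 1.42.0 was an alternative, as were its size factors, no filter, a fit to all 20 libraries, the replicate number as a block and leaving out each library. The number term was fitted on all libraries beside the group. Correlations used deviations from group means of log2 CPM, with a prior count of 2 for single genes and none for sums of lists and markers. Between libraries of equal number, the mimic libraries were permuted exactly within each surgery. For relations across pairs, the mean deviation of the 2 libraries of a pair was used. Whole pairs were then permuted exactly within each surgery. RPKM used exon lengths of GENCODE M1, of an older build (NCBIM37), and gene positions and promoters were those of RefSeq GRCm38.p6. The tests were checked on simulated data.

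The 9 genes, the gene lists and the cell type markers were chosen with earlier results of these data known. All 9 genes are named. From each list the text names genes called, or otherwise those of largest log2 fold change, at most 4 for a comparison, and gene names in the immediate early list are given for all called in the number term. Nearest patterns are the 3 highest and 3 lowest correlations for Arntl, Dbp and Per1. Of the markers, Hbb-bs was not found. Some genes that these rules select are not reported here.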

Additional observations from a re-analysis of the deposited data

Results flagged for a closer look

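In 36 groups, 9 genes in 4 groups of 5 libraries, the highest or the lowest library was compared with its nearest neighbour, and 6 of the 36 had a gap larger than 0.71 of the group's range (Dixon's 95% critical value), which chance alone gives in about 1 of 20 groups. Arntl stood at 45.4 CPM in sham mimic 1, with the next at 27.5 CPM, and Nr1d1 at 151 CPM in sham control 1, with the next at 96.0 CPM. Nr1d1 stood at 137 CPM in MOV control 4, with the next at 81.3 CPM. Clock stood at 48.7 CPM in MOV mimic 5, with the next at 36.2 CPM. At the low end, Per2 stood at 5.07 CPM in MOV mimic 2, with the next at 9.17 CPM, and Nr1d2 at 76.9 CPM in sham mimic 5, with the next at 98.3 CPM. Of the 6, 2 lay in libraries numbered 1 of sham.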

How the results depend on the processing

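In the 6 comparisons of groups no clock gene was called under any alternative run. All 6 were run with DESeq2, its size factors, no filter, and leaving out each library or, for the summed counts, each pair. The comparisons of 2 groups were also fitted to all 20 libraries. A replicate block was run for these and for the interaction, but not for the summed counts. Of 54 results of a gene in a comparison, 29 changed sign when some library was left out, the largest of them at 0.31 on the log2 scale, and 5 of 630 such fits gave an unadjusted edgeR p below 0.05. In the term for equal numbers, DESeq2 called 5 clock genes where edgeR called 3, beside 21.8% and 6.07% of all genes. Leaving out 1 pair gave 1 to 3, beside 0.728% to 7.44% of all genes. The sham libraries alone gave 2 and the MOV libraries alone 1, beside 6.33% and 1.14%. Both of these last runs were chosen after seeing the data. The causes were not tested.

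With the replicate block, a paired fit, edgeR and DESeq2 called 0 clock genes in each comparison of 2 groups and edgeR 0 in the interaction, and the smallest unadjusted edgeR p was 0.0733, for Nr1d1 in sham mimic against sham control. Over all genes the block moved DESeq2's calls from 3 to 127 in MOV mimic against MOV control. Deviations of equal-numbered libraries correlated between 0.0116 and 0.663 in sham and between 0.0347 and 0.321 in MOV, not above 0.1 in every pair, and 8 of 10 mimic libraries correlated best with the control library of their own number, a hint from the data only. Sham and MOV are different mice, so a block over both surgeries joins libraries by number alone. Counting limits Per2 most, with 63 counts in the library where it was counted least.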
